A study of Rattus norvegicus with 6 samples.

Results

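Ligands and receptors of the IL-6 family, which signal through the shared receptor subunit gp130, were followed in injured rat tail discs together with their feedback inhibitor Socs3. The 10 genes were chosen by name and comprise the ligands Il6, Lif, Il11, Osm and Clcf1, the receptor chains Il6st, Il6r, Lifr and Osmr, and Socs3. All 10 were found among the 30562 genes of the count table, and 9 of them had enough reads to be among the 15537 genes tested. Bulk RNA was sequenced from discs of rats that had received AF-PTK@LEV@SPP1 or served as controls, with 3 libraries per group. By the study's methods the animals were male Sprague-Dawley rats of 12 weeks with a needle-punctured tail disc, and the labels give WT as the genotype of both groups. AF-PTK@LEV@SPP1 is a hybrid of liposomes and bacterial outer membrane vesicles that carries an siRNA against Spp1 and a peptide for the annulus fibrosus on a linker cut by reactive oxygen species. It was injected into the disc in 10 μL with 1 mg/kg of siRNA, first at 24 h after surgery, and tissue was followed for 8 weeks, while the labels give 14 days. Controls received PBS according to the study and no treatment according to the labels. The labels further describe macrophages sorted from mouse discs by F4/80 and CD11b, whereas the gene identifiers are those of the rat and the study describes whole disc tissue.

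Cytokines of this family bind a receptor chain of their own and then gp130, encoded by Il6st, which activates JAK kinases and the transcription factor STAT3. STAT3 in turn induces Socs3, an inhibitor that binds gp130 and the JAK kinases and dampens the signal. In the intervertebral disc, IL-6 is among the cytokines found in degenerated and herniated tissue.

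Totals were 17942989, 16565291 and 17489851 counts for control replicates 1, 2 and 3, against 17074981, 15560728 and 17855184 for the replicates under the AF-PTK@LEV@SPP1 label. At these depths 3 counts, taken as the smallest measurable level, correspond to 0.167 to 0.193 CPM (counts relative to library size, called normalized where the size was adjusted for composition), a limit that covers counting error only. Control replicates 2 and 3 differed little beyond counting noise, with a variance 1.33 times that of counting and 16 of 14393 genes differing, against ratios of 51.3 to 107 for the other pairs within a group. By the study's description each library came from an animal of its own, and the deposited counts do not settle whether this holds for the pair. Because of the near-identity the pair was summed and counted as 1 sample, which leaves n = 2 distinct control samples against n = 3. Transcripts of Spp1, against which the siRNA is directed, stood at 8130, 4420 and 4430 normalized CPM in control replicates 1, 2 and 3 and 8050, 6870 and 8440 under the AF-PTK@LEV@SPP1 label. It was thus not lower under that label, so that every direction below is relative to the label and not to a measured loss of Spp1. Col1a1, Col1a2, Sparc and Col2a1 took the largest shares of the counts, with 4.7%, 3.14%, 2.68% and 2.22% on average. Itgam, which encodes CD11b, had 100, 71.2 and 69.8 normalized CPM in the controls and 15.2, 59.2 and 64.7 under the label, and Adgre1, which encodes F4/80, had 42.9, 19.6 and 17.4 against 15.3, 19.9 and 19.5. The genes with the most counts were thus genes of the matrix and not of macrophages, unlike what the labelled sort would give.

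Under the AF-PTK@LEV@SPP1 label, the ligands Il6 and Lif, the receptor chain Osmr and the inhibitor Socs3 were lower than in the controls. Of the 9 members tested, 4 were lower, 0 were higher and 5 did not pass at an adjusted p under 0.05 in edgeR's quasi-likelihood test. In the same test 2.57% of all 15537 genes were lower and 1.13% higher. At an unadjusted p under 0.05 there were 6 members, 5 of them lower and Lifr higher, against 13% of all genes lower and 12.4% higher. DESeq2 called 6 members, against 9.27% of all genes lower and 7.29% higher. With the 6 libraries fitted as separate samples, 5 members were lower and 0 higher, against 9.93% and 8.2% of all genes. The median log2 fold change of the tested members was -1.46, against 0.05 for all genes tested. For 8 of the 9 tested members the groups were free of overlap, a property shared by 45.8% of all genes tested. Each of these calls rests on few samples: without AF-PTK@LEV@SPP1 replicate 1, 1 member was called, and without replicate 2 or replicate 3 of that label 0 members were called by edgeR, with 5 at an unadjusted p under 0.05 in each. In those fits 113 of 15363, 0 of 15208 and 0 of 15228 genes were called in the whole table, the latter with 3109 and 2699 at an unadjusted p under 0.05. In bulk tissue, fewer cells of a type and less RNA per cell cannot be told apart.

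**Figure D1:**
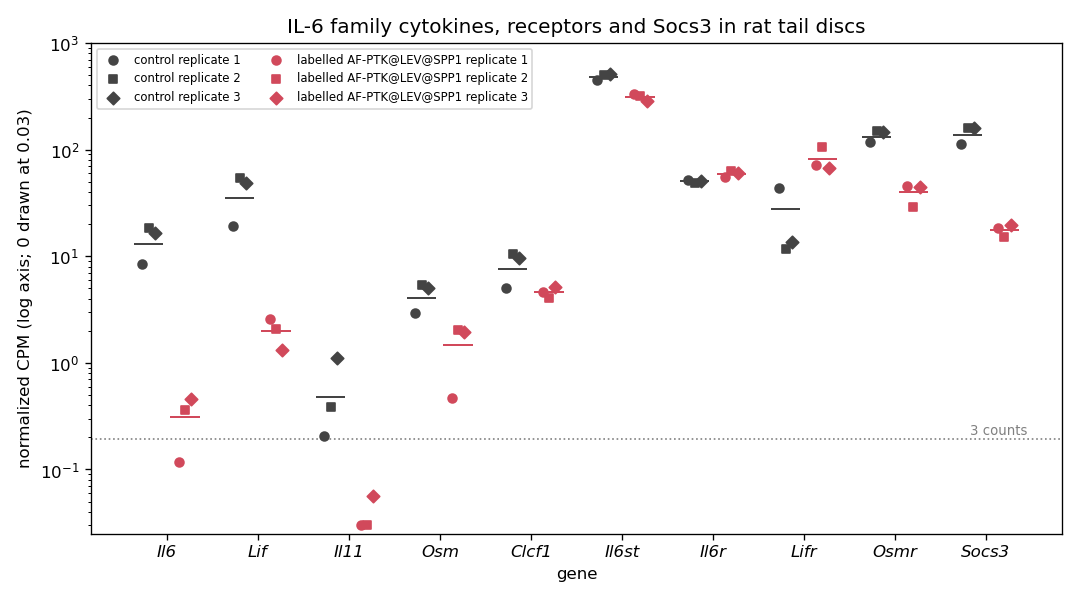
Normalized CPM (log axis) of the 10 members in each library, with control libraries in grey and libraries labelled AF-PTK@LEV@SPP1 in red, lines at the means over distinct samples and a dotted line at 3 counts. Il6, Lif, Osmr and Socs3 are lower in every labelled library than in every control library, Lifr is higher, and Clcf1 overlaps.

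Among the ligands, Il6 encodes the cytokine after which the family is named, an inducer of the acute phase response. Il6 (ENSRNOG00000010278; chromosome 4, 5213394 to 5219178, minus strand) had 8.43, 18.5 and 16.5 normalized CPM in control replicates 1, 2 and 3, and 0.118, 0.361 and 0.455 under the AF-PTK@LEV@SPP1 label, from 2, 6 and 8 counts. The labelled libraries were all low, with the lowest of them under the level of 3 counts, and control replicate 1 was the lowest of the controls but still far above them. The means were 13 ± 6.41 (SD, n = 2) in the controls and 0.311 ± 0.174 (SD, n = 3) under the label. This is a log2 fold change of -5.36 (standard error 0.574, 95% interval -6.81 to -3.90), or 41-fold lower, with an adjusted p of 0.023 in edgeR. Only 22 of the 15537 tested genes had a more negative log2 fold change. The adjusted p was 0.0506, 0.0845 and 0.136 without AF-PTK@LEV@SPP1 replicates 1, 2 and 3, and 0.0578 in limma-voom, with log2 fold changes of -5.79 to -5.00 over all 15 alternatives.

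Lif, the leukemia inhibitory factor, signals through gp130 paired with the chain encoded by Lifr. Lif (ENSRNOG00000007002; chromosome 14, 79134574 to 79140482, plus strand) had 19.4, 53.9 and 48.2 normalized CPM in the controls and 2.59, 2.1 and 1.31 in the labelled libraries. As for Il6, control replicate 1 was the lowest control, and the groups did not overlap. The means were 35.2 ± 22.4 (SD, n = 2) and 2 ± 0.646 (SD, n = 3), a log2 fold change of -4.14 (standard error 0.511, 95% interval -5.43 to -2.85) or 17.7-fold lower, with an adjusted p of 0.0281 in edgeR. Lif lost its call without AF-PTK@LEV@SPP1 replicates 1, 2 and 3 (adjusted p of 0.0611, 0.0967 and 0.146) and in limma-voom (0.0661), at log2 fold changes of -4.68 to -3.91 over the alternatives.

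Osm, or oncostatin M, is made largely by myeloid and T cells and lies next to Lif in the genome. In the table Osm (ENSRNOG00000024390; chromosome 14, 79104344 to 79108313, plus strand) is separated from Lif by 26260 bases with 0 genes between them. It had 2.93, 5.36 and 5.08 normalized CPM in the controls, and 0.47, 2.04 and 1.93 under the label. The groups did not overlap, and AF-PTK@LEV@SPP1 replicate 1 lay well under the other labelled libraries. Its log2 fold change of -1.46 (standard error 0.647, 95% interval -3.10 to 0.17) did not pass in edgeR, with an adjusted p of 0.232 and a range of 0.0832 to 0.364 over the alternatives. The neighbours thus had fold changes of unlike size, -4.14 for Lif and -1.46 for Osm, and the difference between them was not tested.

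Clcf1 encodes a cytokine that signals through the receptor for ciliary neurotrophic factor. Clcf1 (ENSRNOG00000018752; chromosome 1, 201507859 to 201517605, plus strand) had 5.04, 10.5 and 9.67 normalized CPM in the controls and 4.64, 4.09 and 5.11 under the label. Control replicate 1 lay within the range of the labelled libraries, and only replicates 2 and 3, the pair counted as 1 sample, stood above it. The log2 fold change was -0.72 (standard error 0.339), with an adjusted p of 0.253 in edgeR. Clcf1 lies within the spans of Rad9a and Tbc1d10c on the opposite strand, with 1238 and 473 counts over the libraries, and since the use of strand in counting is not given in the sources used here, reads of these genes cannot be told apart with certainty.

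Il11, a ligand known for fibroblast responses and bone remodelling, had the fewest counts of the members. Il11 (ENSRNOG00000017386; chromosome 1, 69068137 to 69076129, plus strand) had 4, 6 and 18 counts in control replicates 1, 2 and 3 and 0, 0 and 1 under the label. Even the near-identical control replicates 2 and 3 held unlike counts of it, and all labelled libraries were under 3 counts. It did not reach the filter on low counts and was not tested. The summed counts were 28 against 1, a ratio of 28 with an exact binomial 95% interval of 4.63 to 1140 that covers counting error only and not the differences between rats. The span of Il11 lies within that of Tmem238 on the same strand, which had 131 counts over the libraries, and reads of this pair cannot be told apart with certainty.

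Turning to the receptors, Il6st encodes gp130, the signal-transducing subunit that all of these ligands use. Il6st (ENSRNOG00000013963; chromosome 2, 44066130 to 44109936, plus strand) had 445, 502 and 514 normalized CPM in the controls and 332, 321 and 288 under the label. Every labelled library lay under every control library, by a margin much smaller than for Il6 or Lif. The means were 477 ± 44.5 (SD, n = 2) and 314 ± 23 (SD, n = 3), and the log2 fold change of -0.61 (standard error 0.148, 95% interval -0.98 to -0.23) did not pass in edgeR, with an adjusted p of 0.0885. It passed with the 6 libraries fitted as separate samples (adjusted p of 0.0179 in edgeR) and in DESeq2 (4.91e-04), and did not pass in any of the other 13 alternatives run for single genes, with 0.263 as the highest value.

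Il6r encodes the receptor chain that binds IL-6 itself, and it is found mainly on leukocytes and hepatocytes and in a soluble form. Il6r (ENSRNOG00000020811; chromosome 2, 175298686 to 175347536, minus strand) had 51.9, 48.9 and 50.6 normalized CPM in the controls and 55.4, 63 and 60.1 under the label. The labelled libraries were slightly above the controls, and its fold change was the smallest among the tested members. The log2 fold change was 0.22 (standard error 0.107, 95% interval -0.05 to 0.49), with an adjusted p of 0.259 in edgeR and a range of 0.087 to 0.489 over the alternatives. The ligand Il6 and its own receptor chain therefore had fold changes of opposite sign, of which only that of the ligand passed.

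Osmr encodes the chain that pairs with gp130 to receive oncostatin M, and it is known from fibroblasts, endothelium and other stromal cells. Osmr (ENSRNOG00000033192; chromosome 2, 55907132 to 55961262, minus strand) had 117, 149 and 146 normalized CPM in the controls and 45.7, 29 and 44.4 under the label. The groups were far apart relative to their spread, and AF-PTK@LEV@SPP1 replicate 2 was the lowest library. The means were 132 ± 21.6 (SD, n = 2) and 39.7 ± 9.29 (SD, n = 3), a log2 fold change of -1.74 (standard error 0.237, 95% interval -2.34 to -1.14) or 3.34-fold lower, with an adjusted p of 0.0339 in edgeR. The call held in limma-voom (0.0415) and was lost without control replicate 1 (0.0627, with the pair as the only control sample and assumed to vary like the labelled libraries) and without AF-PTK@LEV@SPP1 replicates 1, 2 and 3 (0.0626, 0.0733 and 0.15), at log2 fold changes of -1.90 to -1.55.

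Lifr encodes the chain shared by the receptors for LIF and several related ligands, and lies beside Osmr. In the table Lifr (ENSRNOG00000011696; chromosome 2, 56250120 to 56286699, plus strand) is 288857 bases from Osmr with 0 genes between them. It had 43.3, 11.8 and 13.6 normalized CPM in the controls and 71.6, 105 and 67.6 under the label. Here the labelled libraries were the higher ones, and control replicate 1 stood between its own group and theirs. The means were 28 ± 21.6 (SD, n = 2) and 81.4 ± 20.6 (SD, n = 3), and the log2 fold change of 1.54 (standard error 0.555, 95% interval 0.14 to 2.95) did not pass in edgeR (adjusted p of 0.171). Without control replicate 1 it was 2.67 (adjusted p of 0.0565 in edgeR), in a fit where the pair is the only control sample and is assumed to vary like the labelled libraries. Among the 15 alternatives it passed in DESeq2 alone (0.0366).

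The receptor chains of these neighbouring genes were also set against each other within each library. Osmr had 2.7, 12.6 and 10.8 counts per count of Lifr in the controls, and 0.637, 0.276 and 0.656 under the label. This ratio, which is not corrected for gene length and so compares libraries and not genes, was higher in every control library than in every labelled one. It restates the fold changes of the genes it is made of and was not read as a test.

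Socs3, the feedback inhibitor, was the member with the smallest adjusted p. Socs3 (ENSRNOG00000063373; chromosome 10, 103193537 to 103197787, minus strand) had 114, 161 and 158 normalized CPM in the controls and 18.3, 15.2 and 19.6 under the label. The labelled libraries lay close together and far under the lowest control. The means were 137 ± 31.9 (SD, n = 2) and 17.7 ± 2.27 (SD, n = 3), a log2 fold change of -2.95 (standard error 0.197, 95% interval -3.45 to -2.46) or 7.75-fold lower, with an adjusted p of 0.0119 in edgeR. Without AF-PTK@LEV@SPP1 replicates 2 and 3 the adjusted p was 0.0679 and 0.13, and it passed in the other 13 of the 15 alternatives, at log2 fold changes of -3.18 to -2.85. Relative to Stat3, a gene added after its values were seen, Socs3 had 0.552, 0.705 and 0.705 counts per count in the controls and 0.115, 0.111 and 0.134 under the label. As for Osmr and Lifr, this ratio is a description of each library and not a test.

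The remaining ligands and receptors of the gp130 family were measured as a list of 10 genes, of which 6 were tested. In edgeR 0 were lower and 0 higher, against 2.57% and 1.13% of all genes, so that a list of this size is not set apart by having no call. At an unadjusted p under 0.05 there was 1 gene, which was higher, against 12.4% of all genes, and 0 passed in DESeq2 and limma-voom. The median log2 fold change of the list was 0.28. Il11ra1, which encodes the receptor chain for IL-11 and was the most abundant of the list, had 17.7, 20.8 and 20.4 normalized CPM in the controls and 25.9, 25.2 and 41.9 under the label. Its groups did not overlap, and the log2 fold change of 0.69 (standard error 0.271) had an adjusted p of 0.195 in edgeR. Il31 had 0 counts in every library, and the name Il27ra was carried by more than 1 identifier and was not analysed here.

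Of the JAK kinases, STAT factors and their regulators, 24 of 26 genes were matched and 23 tested, and 1 was lower and 0 higher in edgeR, close to the 2.57% and 1.13% of all genes. The list had a median log2 fold change of -0.09, against 0.05 for all genes. In edgeR 7 of the 23 were lower and 2 higher at an unadjusted p under 0.05, against 13% and 12.4% of all genes. Ptpn2, the gene that passed, encodes a phosphatase that removes phosphate from JAK and STAT proteins. It had 44.5, 49.4 and 44.5 normalized CPM in the controls and 20.2, 24 and 26.9 under the label. The groups were apart, at a log2 fold change of -0.95 with a standard error of 0.149 (adjusted p of 0.0419 in edgeR), but no gene of the list was called without control replicate 1 or without any 1 of the 3 AF-PTK@LEV@SPP1 replicates in edgeR, with 6 to 10 genes of the list at an unadjusted p under 0.05, against 2699 to 3998 of all genes. Jak1, the most abundant gene of the list, had 239, 247 and 247 normalized CPM in the controls and 227, 241 and 221 under the label, with a log2 fold change of -0.09 (adjusted p of 0.682 in edgeR). Stat3 itself had 207, 229 and 223 against 159, 137 and 146, at a log2 fold change of -0.56 with a standard error of 0.127 (adjusted p of 0.0794 in edgeR). It passed with the 6 libraries as separate samples (0.0149), a fit in which 6 genes of the list were lower and 1 higher, against 9.93% and 8.2% of all genes. DESeq2 called 5 genes of the list, all lower, against 9.27% of all genes. Stat6 had at most 3 counts in a library. Since Stat6 is expressed in most tissues, a count near 0 in this table was not read as absence.

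Among 25 genes known as targets of STAT3, 20 were tested, 5 were lower and 0 higher in edgeR, with a median log2 fold change of -0.84. Against this, 2.57% of all genes were lower, and the list was put together with earlier results of these data known. Lbp, which encodes the acute phase protein that binds bacterial lipopolysaccharide, had 1300, 2850 and 2830 normalized CPM in the controls and 83.5, 83.5 and 126 under the label. This gave a log2 fold change of -4.41 with a standard error of 0.425 (adjusted p of 0.0209 in edgeR), and control replicate 1 was again the lowest control. Timp1, an inhibitor of matrix metalloproteinases, had 502, 552 and 558 in the controls and 72.4, 55.9 and 80.6 under the label, at a log2 fold change of -2.93 with a standard error of 0.196 (adjusted p of 0.0119 in edgeR). Unlike Lbp, its controls were nearly level. Bcl3, a regulator of NF-kB, had 19.4, 21.9 and 19.5 against 3.11, 3.91 and 4.15 (log2 fold change -2.43, adjusted p of 0.0155 in edgeR), and Cebpd, a transcription factor of the acute phase response, had 40.7, 53 and 50.3 against 10.7, 8.89 and 13.7 (log2 fold change -2.06, adjusted p of 0.023). Il4r, which encodes the receptor chain for IL-4, had 71.5, 64.1 and 64.6 against 29.8, 32.8 and 30.9 (log2 fold change -1.13, adjusted p of 0.0196 in edgeR). Over the list, 12 of the 20 tested genes had no overlap between the groups, against 45.8% of all genes.

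Other known targets of STAT3 did not pass. Hif1a, the most abundant of these, had 585, 1230 and 1230 normalized CPM in the controls and 511, 247 and 492 under the label, and its log2 fold change of -1.12 had an adjusted p of 0.2 in edgeR. Control replicate 1 lay close to the labelled libraries for this gene. Without AF-PTK@LEV@SPP1 replicate 1, edgeR called 2 genes of the list, against 113 of all 15363 genes tested. Without replicate 2 or 3 of that label it called 0 of the list and 0 of all genes, with 10 of the list in each at an unadjusted p under 0.05, against 3109 of 15208 and 2699 of 15228 genes. With the 6 libraries as separate samples 9 were lower, against 9.93% of all genes, and DESeq2 called 10, against 9.27% lower among all genes. Junb and Fga had 0 counts in every library, and as for Stat6 this was not read as absence.

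**Figure D2:**
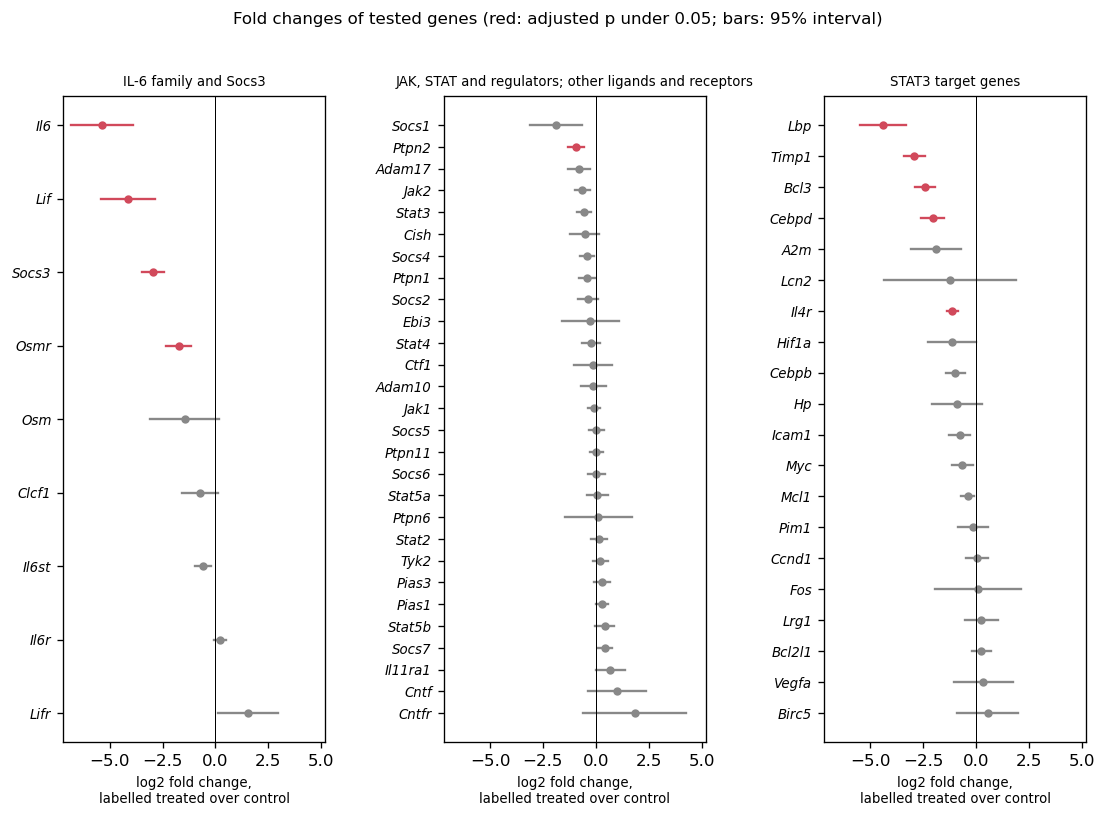
Log2 fold change (points) with 95% interval (bars) of the tested genes reported here, AF-PTK@LEV@SPP1 label over control, for the members, for the JAK and STAT genes with the other gp130 ligands and receptors, and for the STAT3 targets, with red for an adjusted p under 0.05 in edgeR. The red points, 4 members, Ptpn2 and 5 targets, all lie to the left of 0.

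The tested genes outside these lists with a profile over the 6 libraries most like that of Il6, by the root mean square difference of centred log2 CPM, were Postn (0.446), Gal (0.446), Il1a (0.471), Ccl7 (0.482) and Ptgs2 (0.508). Postn encodes the matrix protein periostin, Gal the neuropeptide galanin, Il1a a cytokine, Ccl7 a chemokine and Ptgs2 an inducible enzyme of prostaglandin synthesis. As an example, Ptgs2 had 40.6, 199 and 198 normalized CPM in the controls and 3.23, 3.85 and 4.43 under the label, with control replicate 1 between the others as for Il6. For Osmr, the closest profiles were those of Fjx1 (0.112), Dram1 (0.133), Kremen1 (0.139), Fzd1 (0.144) and Gpr176 (0.15). Fzd1 encodes a receptor for WNT ligands, and had 27.4, 38.5 and 37.9 normalized CPM in the controls and 10.7, 6.49 and 8.47 under the label. Its lowest library was AF-PTK@LEV@SPP1 replicate 2, as for Osmr. Likeness to Il6 or Osmr follows from how these genes were picked and was not read as a test.

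Marker genes of the cell types a disc sample can hold were summed in each library, and their part in the results on the IL-6 family was not tested. For macrophages and monocytes the sums were 3190, 2180 and 2160 normalized CPM in control replicates 1, 2 and 3 and 721, 1990 and 2000 under the label, with 3 of 13 tested genes lower (Cd68, Cd14 and Msr1) and 0 higher, against 2.57% and 1.13% of all genes, Lyz2 as the most abundant gene and Marco at 0. Cd163, of the same list, had a log2 fold change of 1.15 that did not pass (adjusted p of 0.246 in edgeR). AF-PTK@LEV@SPP1 replicate 1 had the lowest macrophage sum and the lowest Osm and Il6, whereas control replicate 1 had the highest macrophage sum and the lowest Osm and Il6 of the controls. For neutrophils the sums were 1230, 198 and 186 against 332, 3190 and 4270, led by S100a9, with 0 of 11 genes called. Osm in the labelled libraries was likewise low in replicate 1 and higher in replicates 2 and 3, while control replicates 2 and 3 had the highest Osm and the lowest neutrophil sums. For T and B lymphocytes the sums were 405, 118 and 114 against 214, 480 and 390, led by Jchain, with Cd8a and Cd2 lower among 12 genes, against 2.57% of all genes.

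Lifr had the same order over the libraries as the adipocyte genes, whose sums were 184, 26.7 and 26.6 in the controls and 471, 925 and 331 under the label, except that control replicates 2 and 3 were nearly level in the latter. This list was led by Adipoq, and 0 of its 8 genes were called. Osmr and Il6st, which are expressed by stromal and endothelial cells, can be set beside the endothelial sums of 655, 811 and 798 against 495, 559 and 571, led by Pecam1 with 0 of 9 genes called, and beside the annulus fibrosus and tendon sums of 62600, 93800 and 94600 against 119000, 85400 and 103000, led by Col1a1 with Lum lower among 10 genes. The sums for nucleus pulposus and cartilage were 21800, 31600 and 31400 against 40600, 28000 and 43500, led by Col2a1, with 0 of 11 genes called. The annulus sums are mostly those of Col1a1 and Col1a2, and the log2 fold changes of the 10 genes of that list went both ways, from -3.40 for Lum, which alone passed, to 1.25 for Mkx, with a median of 0.03.

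Tissue next to the disc was also represented to unequal degrees. The sums for osteoblast genes were 4720, 1850 and 1850 in the controls and 2250, 3230 and 1880 under the label (Ibsp leading, 0 of 8 called). Those for skeletal muscle were 1270, 1690 and 1690 against 1170, 11600 and 3030 (Acta1 leading, 0 of 9 called), and those for erythroid cells 2400, 3200 and 3290 against 2510, 20500 and 14100 (Hba-a1 leading, 0 of 8 called). AF-PTK@LEV@SPP1 replicate 2 held the most muscle and erythroid transcripts, and it had the lowest Osmr, Socs3 and Clcf1 and the highest Lifr and Il6r of the 6 libraries. Other members did not follow it: Il6 was lowest in AF-PTK@LEV@SPP1 replicate 1, and Lif and Il6st were lowest in replicate 3. Osm in replicate 2 was the highest of the labelled libraries. A link between these transcripts and the members was not tested. At an unadjusted p under 0.05 in edgeR, 13% of all genes were lower and 12.4% higher. By the same rule 5 of 13 macrophage, 5 of 12 lymphocyte and 5 of 9 endothelial genes were lower and 0 higher, and 5 of 8 adipocyte and 2 of 8 erythroid genes were higher and 0 lower. Of the annulus genes 2 of 10 were lower and 1 higher, of the nucleus pulposus and cartilage genes 2 of 11 were lower and 3 higher, and of the neutrophil, osteoblast and muscle genes 0 of 11, 0 of 8 and 0 of 9 were below that p.

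Upstream sequences were read from a table of promoters made from RefSeq, in which 7 of the 10 members were matched. Lif, Osm and Clcf1 were not analysed here in this respect. Within the 250 bases before the start of each gene, short motifs were sought on both strands. The STAT motif TTCNNNGAA was found in 0 of the 7 members and in 7.67% of all 33469 promoters, and the motif TATAAA in 0 members and 12.9% of promoters. At these shares 7 members are too few for 0 matches to set them apart, and sites outside the 250 bases were not sought. The AP-1 motif TGANTCA was found in Il11 and Osmr, against 6.34% of promoters, and the NF-kB motif GGANTTTCC in Il6 alone, against 1.08%. A match describes letters only and no binding was measured. Because Il6 had the most negative fold change of the members, the 150 bases before its start are shown (GRCr8, chr4:5894576-5894725, minus strand, a build other than that of the count table), with the NF-kB motif, 67 to 59 bases before the start, in capitals.
Il6: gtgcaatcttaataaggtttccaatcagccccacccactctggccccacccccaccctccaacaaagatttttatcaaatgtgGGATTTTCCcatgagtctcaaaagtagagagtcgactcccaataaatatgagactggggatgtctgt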

How the data were processed

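RNA of 6 disc libraries was analysed. The authors deposited counts, whole numbers of reads per Ensembl rat gene without normalization. The submitters' processing notes name FastQC, Trimmomatic, HISAT2, featureCounts and DESeq2 without versions, and mm10, a mouse build. The rat build, the use of strand and the handling of shared reads are not given in the sources used here. Coordinates of genes are those of the count table. Columns were matched to samples by the treatment in their names and their numbers, with the columns not named for the treatment taken as control.

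Counts were normalized by the trimmed mean of M-values, filtered with filterByExpr (minimum count 10) and tested with the quasi-likelihood test of edgeR 4.0.16 in R 4.3.3, with Benjamini-Hochberg adjustment over 15537 genes and calls at an adjusted p under 0.05. Control replicates 2 and 3 were summed to 1 sample. Normalized CPM are given per library, and means and SD over distinct samples. The p-values measure the spread between these samples. Alternatives were DESeq2 1.42.0, limma-voom (limma 3.58.1), 6 separate libraries, other normalizations, filters and thresholds, the replicate number as a block, robust dispersions, and leaving out each library.

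The members and lists were chosen with earlier results of these data known. Named genes are the 10 members, in each pathway list the genes that passed and the most abundant that did not, the 5 genes most like Il6 and Osmr, and the most abundant gene of each marker list. Spp1, Itgam, Adgre1, Stat3, Stat6, Cd163, Col1a2, Mkx and marker genes that passed were added after their values were seen. No gene lengths were used, and most abundant means the most counts in the table, not corrected for length. Some genes of the lists are not reported here.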

Additional observations from a re-analysis of the deposited data

How the results depend on the processing

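Of the 135 fits of single members over 15 alternatives, 0 changed direction, 118 kept their side of the threshold, 14 no longer passed and 3 passed newly. The 575 genes called became 2727 (1233 higher, 1494 lower) with 6 separate libraries, 2572 (1132 higher, 1440 lower) in DESeq2, 8 at an adjusted p under 0.01 and 1687 under 0.10, and 0 to 566 with a library left out. The 4 members called became 2 in limma-voom, 0 under 0.01, and 0 to 4 with a library left out. The 1 JAK or STAT gene became 7 with 6 separate libraries, 5 in DESeq2, 0 with an absolute log2 fold change above 1, 0 under 0.01, 4 under 0.10, and 0 to 1 with a library left out. The 5 STAT3 targets became 9 with 6 separate libraries, 10 in DESeq2, 0 under 0.01, 8 under 0.10, and 0 to 5 with a library left out. The other gp130 ligands and receptors had 0 calls in every setting run. Fewer distinct samples were fitted where a library other than control replicate 2 or 3 was left out, and leaving out control replicate 1 keeps 1 control sample. The cause of the other changes was not tested.

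Libraries of the same replicate number had correlations of -0.323, -0.274 and -0.0794 between their deviations from the group means, so that the numbers were not taken as pairs. With the number as a replicate block and 6 libraries, 741 genes, 4 members, 0 other gp130 genes, 1 JAK or STAT gene and 6 STAT3 targets were called.

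With 2 distinct control samples, 1 control library that differs from the near-identical pair carries much of the spread. Members at a few counts, Il11 above all, are limited by depth.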
